A study of Mus musculus with 6 samples.

Results

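The genes described here mark the birth and early differentiation of neurons. They comprise proneural and neurogenic transcription factors, homeodomain factors of motor neurons and interneurons, neuronal RNA-binding proteins, and proteins of the neuronal cytoskeleton, growth cone and synapse. They were chosen by name, as every probe set annotated to exactly 1 symbol in a list of 37 genes, and 34 of these genes were on the array, with 63 of the 22626 probe sets tested. Pou4f1, Nhlh2 and Onecut2 had no such probe set and were not analysed here. The tissue was taken from mouse embryos at 9.5 days post coitum, of strain c57bl/6 per the labels, and reached from the otic placode back to the newest somite, with heart and endoderm taken off. Wild-type embryos (Dll3+/+) were compared with embryos homozygous for a neo insertion in Dll3 (Dll3-tm1Rbe/tm1Rbe, also written Dll3neo/neo), with 3 pools of each genotype and 1 Affymetrix MOE430A array for each pool. The series design calls the pools biological replicates, and the number of embryos in a pool was not given in the sources used here. The study asked which genes of somite-level tissue are disrupted when Dll3 is mutated.

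Neurons of the trunk arise from dividing progenitors of the neural tube and from neural crest. Delta ligands on newborn neurons activate Notch in neighbouring progenitors, which keeps those neighbours in the progenitor state, while proneural factors of the basic helix-loop-helix family drive cells that escape Notch to leave the cell cycle. Postmitotic neurons then switch on Elavl RNA-binding proteins, neuron-specific tubulin and neurofilaments, and LIM and other homeodomain factors set their subtype. Dll3 is a divergent Notch ligand. It is expressed in the presomitic mesoderm and in differentiating neurons of the neural tube.

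The values were ratios of each probe set to its own reference, so a ratio of 1 is the usual level of that probe set over the 6 pools, and log2 of the ratio is 0 there. Such ratios compare pools for 1 gene and hold no level that could be compared between genes. For the same reason the labelled tissue could not be checked by the presence or absence of marker genes. A bulk ratio also cannot tell fewer neurons from less RNA in each neuron. Precision is limited by the few arrays. The median standard error of a log2 difference between genotypes was 0.105 over the 34 genes and 0.0869 over all 12393 genes measured.

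Stretches upstream of the start site are shown for 5 of the genes, because the first 4 of them had their highest mean level in 1 and the same pool, mutant replicate 2, and the last had its lowest level there. Each is the 250 bases before the RefSeq start on build GRCm38.p6, 5′ to 3′ on the gene's strand. Capitals mark E-boxes of the letters CAGATG, which reads CATCTG on the other strand, of CAGCTG, and also of CATATG, sequences that proneural factors can bind. The positions are chr2:79456637-79456886 (minus strand) for Neurod1, chr9:22052024-22052273 (minus) for Elavl3, chr2:181314501-181314750 (minus) for Stmn3, chr8:123411303-123411552 (plus) for Tubb3 and chr5:29478471-29478720 (minus) for Mnx1.
Neurod1: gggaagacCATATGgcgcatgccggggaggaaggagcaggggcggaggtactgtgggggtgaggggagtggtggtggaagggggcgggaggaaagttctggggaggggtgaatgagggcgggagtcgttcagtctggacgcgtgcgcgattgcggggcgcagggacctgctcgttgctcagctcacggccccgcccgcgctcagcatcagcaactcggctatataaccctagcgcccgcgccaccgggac
Elavl3: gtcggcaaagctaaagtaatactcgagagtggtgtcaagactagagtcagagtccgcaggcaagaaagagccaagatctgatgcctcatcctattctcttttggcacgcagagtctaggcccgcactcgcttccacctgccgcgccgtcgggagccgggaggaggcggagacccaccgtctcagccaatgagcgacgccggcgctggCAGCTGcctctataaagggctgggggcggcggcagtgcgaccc
Stmn3: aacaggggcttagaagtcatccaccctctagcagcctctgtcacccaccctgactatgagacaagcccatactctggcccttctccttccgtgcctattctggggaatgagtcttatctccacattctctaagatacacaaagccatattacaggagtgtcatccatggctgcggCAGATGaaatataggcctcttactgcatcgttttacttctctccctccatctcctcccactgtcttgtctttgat
Tubb3: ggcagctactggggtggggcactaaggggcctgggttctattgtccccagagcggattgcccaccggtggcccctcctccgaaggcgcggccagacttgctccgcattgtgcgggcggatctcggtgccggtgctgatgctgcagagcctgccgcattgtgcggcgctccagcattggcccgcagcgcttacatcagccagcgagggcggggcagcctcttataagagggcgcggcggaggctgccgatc
Mnx1: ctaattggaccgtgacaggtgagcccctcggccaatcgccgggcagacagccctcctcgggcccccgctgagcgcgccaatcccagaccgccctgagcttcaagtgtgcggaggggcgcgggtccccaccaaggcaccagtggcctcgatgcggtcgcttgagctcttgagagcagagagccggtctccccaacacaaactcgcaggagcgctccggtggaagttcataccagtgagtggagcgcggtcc

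An E-box of these kinds began 242 bases before the start of Neurod1, 43 before that of Elavl3 and 75 before that of Stmn3. The windows of Tubb3 and Mnx1 held none of these letters. Other E-box letters were not searched for and are not marked. The genes shown were picked from the 18 measured genes with 1 window, so no contrast between them is drawn. Over all 32851 windows of the promoter table, 28.1% held at least 1 such E-box in the same 250 bases. The table held 25 of the 34 measured genes (73.5%), below the 80% needed, so a count over the gene list would be void and none was made.

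Between the genotypes, no neurogenesis or early neuron gene passed the test. Of the 34 genes, 19 were higher and 15 lower in the mutant mean, with a median log2 difference of 0.013, beside a median of 0.003 and 51.9% higher over all genes. In limma fitted over all genes, 0 of the 34 had an adjusted p under 0.05 (0% of all genes), and 1, Mnx1, had an unadjusted p under 0.05, which is 2.94% of the 34 against 2.67% of all genes. Of the 63 probe sets, 31 were higher and 32 lower, 0 passed the adjusted threshold (0% of all probe sets), and 4 had an unadjusted p under 0.05, one each of Mapt, Mnx1, Onecut1 and Gpm6a, or 6.35% against 2.63% of all probe sets. The split of 19 higher and 15 lower rested on single pools: it was 8 and 26 without mutant replicate 2, 25 and 9 without mutant replicate 1, and 14 and 20 without wild-type replicate 3.

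**Figure D1:**
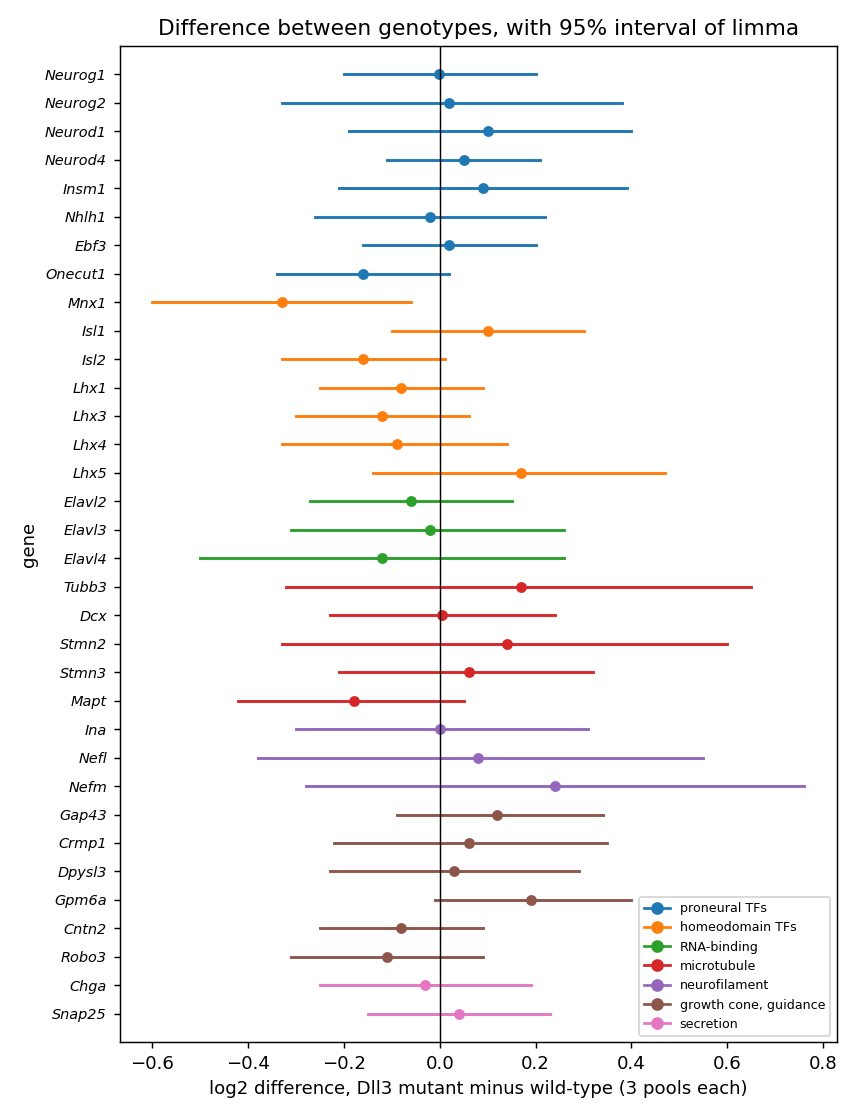
The log2 difference, Dll3 mutant minus wild-type, of each of the 34 genes (point, mean of its probe sets, 3 pools a genotype) with its 95% interval from limma (line), coloured by role. Mnx1, at -0.33, is the gene whose interval leaves out 0, and the intervals of Nefm, Tubb3, Stmn2 and Nefl are among the widest.

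The differentiation genes spread more between the pools of the mutant genotype than the typical gene on the array, which is described here without a test. Mutant replicate 2 had the highest level of all 6 pools for 17 of the 34 genes, or 50%, against 13.8% of all genes. Mutant replicate 1 had the lowest level for 14 of the 34, or 41.2%, against 21.0% of all genes. The SD over the mutant pools was larger than that over the wild-type pools for 29 of the 34 genes, or 85.3%, against 50.4% of all genes. The median SD was 0.166 on the log2 scale in the mutant and 0.103 in the wild-type pools, where all genes had 0.0956 and 0.0953. The share with a larger mutant SD differed between related lists. It was 70.4% for the Notch control of neurogenesis, 66.7% for neural crest and early glia genes and 61.8% for other early neuron genes. Nearer the share of all genes were axon guidance genes (56.5%), neural progenitor genes (53.8%) and spinal neuron subtype and transmitter genes (51.9%). Among lists of other tissues it was 61.5% for primitive erythroid, 60% for myotome, 50% for somite and sclerotome and 38.5% for endothelial genes. It was 33.3% for heart and gut endoderm and 30.8% for surface ectoderm genes. Without mutant replicate 2 the count with the larger mutant SD was 19 of 34 (55.9%, against 48.1% of all genes). It was 22 without mutant replicate 1 (64.7% against 34.2%) and 22 without mutant replicate 3 (64.7% against 43.9%). It was 23 without wild-type replicate 1 (67.6% against 53.3%) and 23 without wild-type replicate 2 (67.6% against 52.4%). Without wild-type replicate 3 it was 29 (85.3% against 68.5%). The median SD of the 34 genes without mutant replicate 2 was 0.148 in the mutant against 0.103 in the wild-type pools, where all genes had 0.0918 and 0.0953. With a pool left out, the SD of its genotype rests on fewer pools than that of the other genotype. These values therefore cannot show how much of the spread came from 1 pool.

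**Figure D2:**
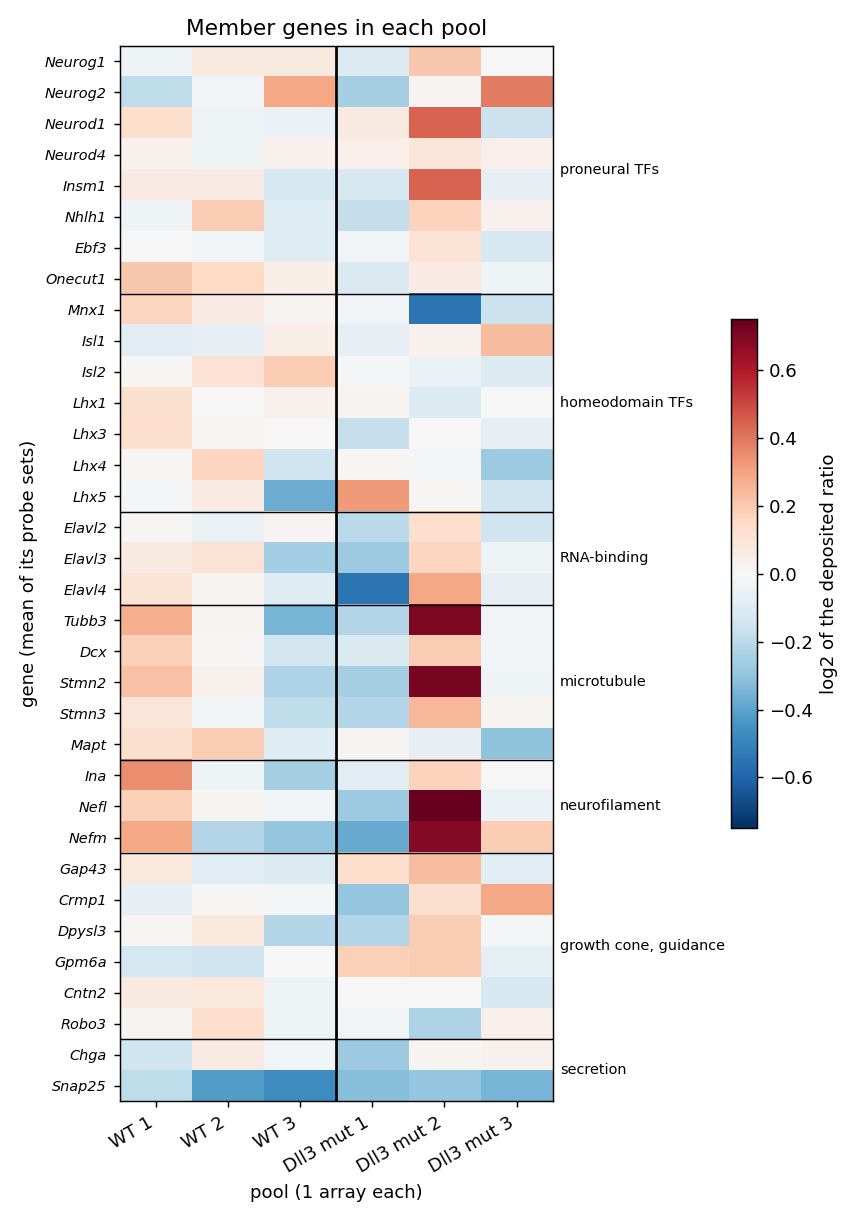
The log2 of the deposited ratio of each of the 34 genes (rows, mean of the gene's probe sets, grouped by role) in each of the 6 pools (columns), with red above and blue below the gene's reference. Dll3 mutant replicate 2 is red for most genes of RNA-binding, microtubule and neurofilament proteins and blue for Mnx1.

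**Figure D3:**
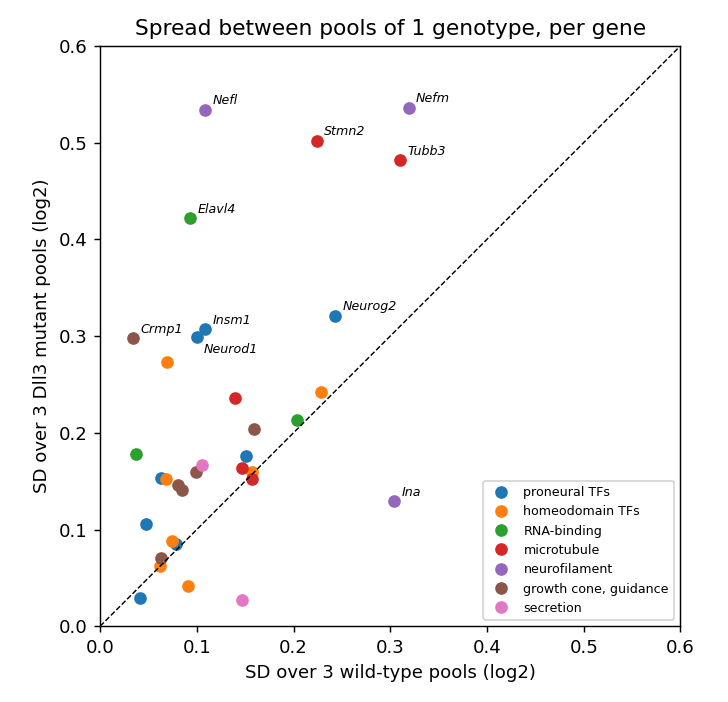
Each point is 1 of the 34 genes, with its SD over the 3 wild-type pools on the horizontal axis and over the 3 Dll3 mutant pools on the vertical axis, both on the log2 scale, and the dashed line marks equal SDs. Of the genes, 29 lie above the line, among them Nefl, Nefm, Stmn2, Tubb3 and Elavl4, and Ina lies below it.

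Among the proneural and neurogenic factors, 5 of 8 were higher and 3 lower in the mutant mean, and none passed. Neurod1 encodes a basic helix-loop-helix factor that acts after the neurogenins. Its first probe set had ratios of 1.02, 0.954 and 0.966 in wild-type replicates 1, 2 and 3 and of 1.096, 1.63 and 0.98 in mutant replicates 1, 2 and 3. Mutant replicate 2 stood alone at the top, and mutant replicate 3 lay inside the wild-type range, so the groups overlapped. The log2 difference of this probe set was 0.30 (SE 0.157), that of the other probe set was -0.10 (SE 0.124), and the gene mean was at 0.10 (SE 0.132, adjusted p = 1 after rounding in limma).

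Insm1, a zinc finger factor of neuronal progenitors that are about to differentiate, was at 1.042, 1.043 and 0.915 in the wild-type and at 0.922, 1.356 and 0.958 in the mutant pools. Mutant replicate 2 was again alone above the others. Its log2 difference was 0.09 (SE 0.136). Neurog1, a proneural factor of sensory and spinal lineages, had probe sets that disagreed. One was at 0.943, 0.993 and 1.078 in the wild-type and at 0.934, 1.41 and 1.007 in the mutant pools, and the other at 1.008, 1.112 and 1.028 and at 0.938, 0.94 and 0.992. The first was high in mutant replicate 2 and overlapped, while in the second every mutant pool lay below every wild-type pool. Their log2 differences were 0.13 (SE 0.14) and -0.13 (SE 0.0852).

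Neurog2, the related proneural factor of motor and other spinal neurons, did not share that pool pattern. It was at 0.878, 0.989 and 1.224 in the wild-type and at 0.841, 1.011 and 1.309 in the mutant pools. Replicate 3 was highest in both genotypes and the groups overlapped almost fully, with a log2 difference of 0.02 (SE 0.16). Neurod4 was higher in every mutant pool than in any wild-type pool by its mean of 2 probe sets, but by 0.05 (SE 0.0705), and each probe set alone overlapped. Nhlh1 was at -0.02 (SE 0.108) and Ebf3, an early B-cell factor of postmitotic neurons, at 0.02 (SE 0.0801).

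Onecut1 encodes a cut homeodomain factor of early spinal neurons. Its first probe set was at 1.316, 1.238 and 1.011 in the wild-type and at 0.956, 0.964 and 0.989 in the mutant pools. Every mutant pool lay below every wild-type pool, by little where wild-type replicate 3 is concerned. The log2 difference of this probe set was -0.28 (SE 0.106, unadjusted p = 0.0211, adjusted p = 1 after rounding in limma). The other probe set overlapped, at -0.04 (SE 0.0996), and the gene mean was at -0.16 (SE 0.08).

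Of the 7 measured homeodomain factors that mark motor neurons and interneurons, 5 were lower and 2 higher, with a median of -0.095 and an unadjusted p under 0.05 for Mnx1. Mnx1 keeps motor neurons from taking an interneuron fate, and it is also expressed in notochord and gut. Its ratios were 1.116, 1.046 and 1.017 in the wild-type and 0.983, 0.683 and 0.894 in the mutant pools. The genotypes did not overlap, the mutant being the lower, and mutant replicate 2, the pool highest for most cytoskeletal genes, was lowest here. The log2 difference was -0.33 (SE 0.122, 95% interval -0.60 to -0.06, unadjusted p = 0.0224, adjusted p = 1 after rounding in limma over genes). Without mutant replicate 2 it was -0.18.

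Isl2, a LIM homeodomain factor of motor and sensory neurons, was at 1.008, 1.078 and 1.143 in the wild-type and at 0.992, 0.963 and 0.936 in the mutant pools. The groups did not overlap, and the nearest pools, wild-type replicate 1 and mutant replicate 1, were close together. The log2 difference was -0.16 (SE 0.0771, 95% interval -0.33 to 0.01). Isl1, the LIM factor shared by motor and sensory neurons, had its highest level in mutant replicate 3 by both probe sets and was at 0.10 (SE 0.0909). Isl1 and Isl2 thus had differences of opposite sign, with both intervals holding 0.

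Lhx3, which acts with Isl1 in motor neurons and alone in V2 interneurons, had a probe set at 1.098, 1.001 and 1.048 in the wild-type and at 0.839, 0.999 and 0.925 in the mutant pools. No mutant pool exceeded a wild-type pool, though wild-type replicate 2 and mutant replicate 2 were nearly equal. The difference was -0.19 (SE 0.0938) by that probe set and -0.05 (SE 0.0887) by the other, which overlapped. Lhx4, its close relative, was at -0.09 (SE 0.105) and Lhx1 of dorsal and ventral interneurons at -0.08 (SE 0.0752). Lhx5, also of interneurons, was highest in mutant replicate 1 (ratio 1.251) and lowest in wild-type replicate 3 (0.775), with a difference of 0.17 (SE 0.138). For none of the 7 factors was mutant replicate 2 the highest pool.

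Over genes, the groups did not overlap for 3 of the 34 (Mnx1, Isl2 and Neurod4), or 8.82%, against 7.46% of all genes. Over probe sets they did not overlap for 7 of 63, or 11.1%, against 7.46% of all probe sets. Of these 7, 6 were lower in the mutant pools (1 each of Neurog1, Onecut1, Mnx1, Isl2, Lhx3 and Mapt) and 1 was higher (Gpm6a). The counts are small, and the shares lay close to those over the whole array.

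All 3 Elavl genes, whose RNA-binding proteins stabilise neuronal transcripts, had their highest gene mean in mutant replicate 2 and their lowest in mutant replicate 1. For Elavl3 the lowest was close to wild-type replicate 3 (log2 -0.27 and -0.26). Not every probe set followed the gene mean. An Elavl2 probe set was highest in mutant replicate 1 (1.162). An Elavl3 probe set was highest in wild-type replicate 1 (1.113) and lowest in wild-type replicate 3 (0.764). One Elavl4 probe set was at 1.157, 0.995 and 1.005 in the wild-type and at 0.653, 1.46 and 0.901 in the mutant pools. The mutant pools lay on both sides of the wild-type range, 2.24-fold apart from lowest to highest. The gene mean of Elavl4 differed by -0.12 (SE 0.17), that of Elavl2 by -0.06 (SE 0.0945) and that of Elavl3 by -0.02 (SE 0.126). The other 2 Elavl4 probe sets also had mutant replicate 1 lowest (0.768 and 0.632) and mutant replicate 2 highest (1.134 and 1.097).

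Elavl2 was read by 5 probe sets, which spread over both signs from -0.20 (SE 0.197) to 0.19 (SE 0.174). The lowest of them was at 1.052, 0.948 and 1.078 in the wild-type and at 0.631, 1.278 and 0.876 in the mutant pools. It followed the Elavl4 pattern. The probe set with the positive difference was at 0.814, 0.814 and 1.208 in the wild-type and at 0.833, 1.213 and 1.167 in the mutant pools. Wild-type replicates 1 and 2 and mutant replicate 1 were low, and the other pools were high. Elavl3 probe sets agreed in sign or lay near 0, from -0.06 (SE 0.127) to 0.00035 (SE 0.14).

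Of the 5 microtubule genes, 4 had mutant replicate 2 highest and all 5 were higher in wild-type replicate 1 than in wild-type replicate 3. Tubb3, Stmn2 and Nefl are outside the rule for naming genes and were chosen after their values were seen, as were Insm1, Neurog2, Isl2, Lhx3, Dcx and Crmp1. Fabp7 and Cdkn1c, from the other lists, are inside the rule but were also chosen after their values were seen. Tubb3, the neuronal class III beta-tubulin, was at 1.206, 1.016 and 0.787 in the wild-type and at 0.858, 1.619 and 0.984 in the mutant pools. Mutant replicate 2 was far above the rest, and the other 2 mutant pools lay inside the wild-type range. The highest mutant pool was 1.89-fold the lowest, while the log2 difference between genotypes was 0.17 (SE 0.218, 95% interval -0.32 to 0.65).

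Stmn2, a tubulin-binding growth cone protein, had its widest probe set at 1.206, 1.059 and 0.912 in the wild-type and at 0.769, 1.879 and 0.941 in the mutant pools. The wild-type pools lay inside the mutant range, and the mutant pools spanned 2.44-fold. Its other probe set was also highest in mutant replicate 2 (1.42), but lowest in wild-type replicate 3 (0.8). The gene mean differed by 0.14 (SE 0.21). Stmn3, a relative of Stmn2, had 1 probe set at 1.048, 0.952 and 0.787 in the wild-type and at 0.825, 1.274 and 1.073 in the mutant pools. The other was at 1.083, 1.017 and 0.983 and at 0.893, 1.111 and 0.96. Both were highest in mutant replicate 2, and the groups overlapped in both. Their log2 differences were 0.17 (SE 0.154) and -0.06 (SE 0.1), and the gene mean was highest in mutant replicate 2 and lowest in mutant replicate 1.

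Dcx, doublecortin, binds microtubules in migrating neurons. One of its 4 probe sets was at 1.269, 1.021 and 0.824 in the wild-type and at 0.827, 1.596 and 0.979 in the mutant pools, close to the Tubb3 pattern. The other 3 probe sets stayed between 0.883 and 1.129 in every pool. Their differences ran from -0.10 (SE 0.0864) to 0.06 (SE 0.102), and the gene mean differed by 0.0042 (SE 0.104).

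Mapt, the microtubule-associated protein tau of axons, had the smallest p of the 63 probe sets and did not follow that pattern. The probe set concerned was at 1.154, 1.313 and 1.051 in the wild-type and at 0.949, 0.868 and 0.757 in the mutant pools. Every mutant pool lay below every wild-type pool. The log2 difference was -0.45 (SE 0.113, 95% interval -0.70 to -0.20, unadjusted p = 0.00211, adjusted p = 1 after rounding in limma over probe sets). The other 2 probe sets of Mapt overlapped, at -0.15 (SE 0.131) and 0.05 (SE 0.103), and the gene mean was at -0.18 (SE 0.105, 95% interval -0.42 to 0.05).

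The 3 neurofilament genes encode intermediate filaments of axons, and their mean level over pools had the widest swing of the role groups. On the log2 scale it was 0.28, -0.07 and -0.19 in the wild-type and -0.24, 0.54 and 0.05 in the mutant pools. Nefm, the medium chain, was at 1.225, 0.859 and 0.816 in the wild-type and at 0.77, 1.617 and 1.141 in the mutant pools. Nefl, the light chain, was at 1.136, 1.017 and 0.983 and at 0.83, 1.679 and 0.968. For both, mutant replicate 2 was the highest and mutant replicate 1 the lowest pool, more than 2-fold apart (2.1 for Nefm and 2.02 for Nefl). The log2 differences between genotypes were 0.24 (SE 0.235) for Nefm and 0.08 (SE 0.208) for Nefl.

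Ina, alpha-internexin, departed from the other neurofilaments. It was one of 5 genes whose SD was larger in the wild-type pools (0.304 against 0.129 in the mutant pools). Its widest probe set was at 1.213, 0.956 and 0.695 in the wild-type and at 1.016, 1.143 and 0.984 in the mutant pools. The mutant pools lay inside the wild-type range. Wild-type replicate 1 was highest for this and the other 2 probe sets. The gene mean differed by 0.0013 (SE 0.137), with probe sets from -0.11 (SE 0.148) to 0.17 (SE 0.166).

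**Figure D4:**
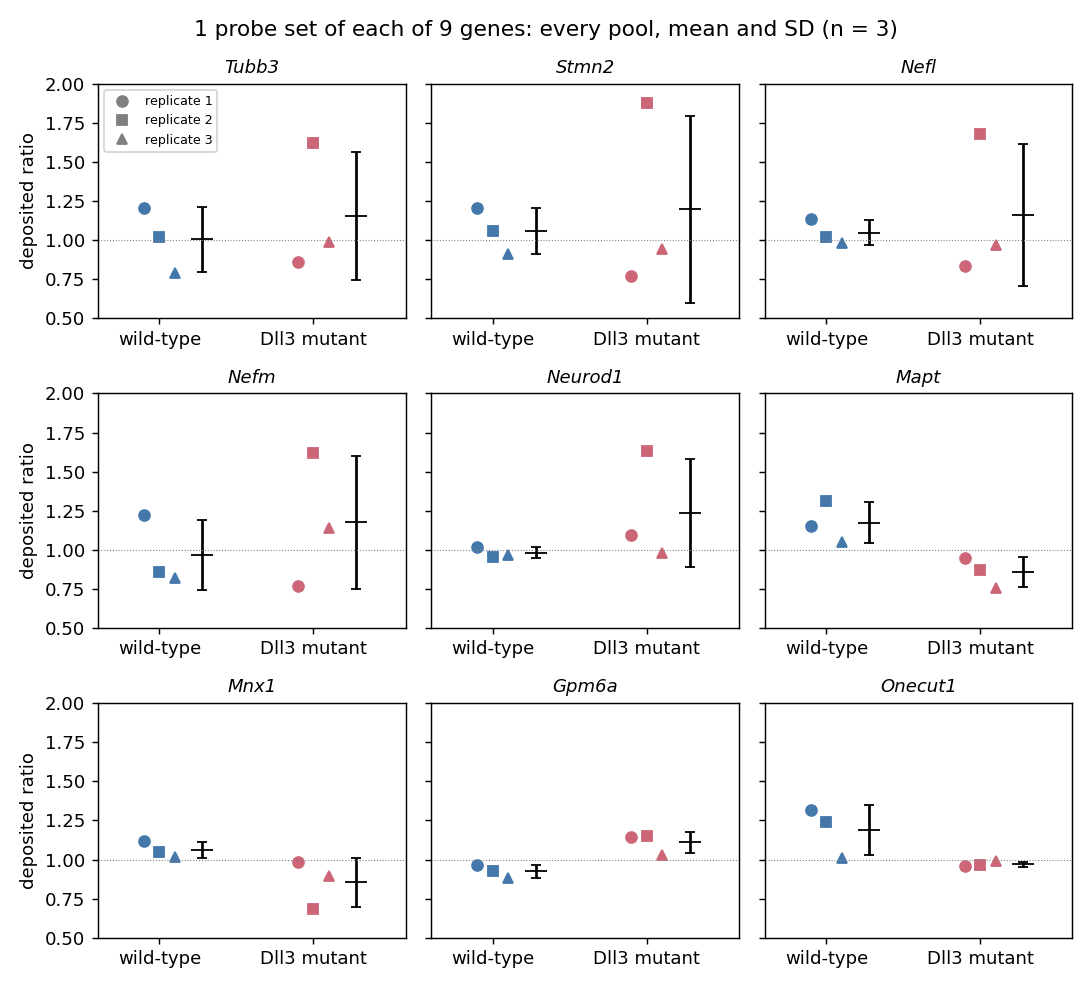
The deposited ratio (vertical axis, linear) of 1 probe set for each of 9 genes in the wild-type and the Dll3 mutant pools; the marker shape gives the replicate number, and the bar is the mean with its SD (n = 3). In Tubb3, Stmn2, Nefl, Nefm and Neurod1 the square of mutant replicate 2 stands above all other pools, while Mapt, Mnx1, Gpm6a and Onecut1 separate the genotypes in these probe sets without passing the adjusted threshold.

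Of the 6 growth cone and axon guidance genes, 4 were higher and 2 lower, and none passed. Gpm6a, a membrane glycoprotein of growing axons, had a probe set at 0.968, 0.925 and 0.885 in the wild-type and at 1.145, 1.152 and 1.032 in the mutant pools. Every mutant pool lay above every wild-type pool, and the spread within each genotype was small. The difference was 0.26 (SE 0.0883, unadjusted p = 0.0133, adjusted p = 1 after rounding in limma). Its other probe set was at 0.86, 0.882 and 1.129 and at 1.118, 1.131 and 0.881 and so overlapped, with a gene mean of 0.19 (SE 0.091, 95% interval -0.01 to 0.40).

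Crmp1, a collapsin response mediator that relays semaphorin signals to the cytoskeleton, varied little among wild-type pools (0.962, 1.007 and 0.993) and much among mutant pools (0.82, 1.087 and 1.226). Its mutant values lay on both sides of the wild-type ones, and the difference was 0.06 (SE 0.128). Dpysl3 of the same family was highest in mutant replicate 2 and at 0.03 (SE 0.116). Gap43, a growth cone phosphoprotein, was at 0.12 (SE 0.096) and highest in mutant replicate 2. The adhesion molecule Cntn2 was at -0.08 (SE 0.0762), and Robo3, the receptor that lets commissural axons cross the midline, at -0.11 (SE 0.0905) and lowest in mutant replicate 2.

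Chga, of secretory granules, was at -0.03 (SE 0.0985), and Snap25, a synaptic membrane fusion protein, at 0.04 (SE 0.087). The Snap25 row was the one among the 63 whose median lay below 1, at 0.793. Its ratios were 0.874, 0.746 and 0.722 in the wild-type and 0.8, 0.816 and 0.786 in the mutant pools. The mutant pools lay inside the wild-type range.

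Probe sets of 1 gene often went apart. Of the 18 genes with more than 1 probe set, 9 had probe sets of both signs, and in 6 of them (Neurog1, Neurod1, Elavl2, Stmn3, Mapt and Ina) these lay more than 0.2 apart on the log2 scale. The transcript parts that the probe sets read were not analysed here.

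The difference between genotypes was smaller than the gene's own SD between pools of 1 genotype for 25 of the 34 genes, or 73.5%, beside 77% of all genes. That within-genotype SD had a median of 0.157 over the 34 genes and 0.106 over all genes. By role the median was 0.386 for neurofilaments, 0.209 for Elavl genes, 0.193 for microtubule genes, 0.14 for proneural factors, 0.125 for growth cone genes and 0.118 for homeodomain factors. On the log2 scale the mean level over all 34 genes was 0.06, 0.01 and -0.09 in the wild-type and -0.12, 0.15 and -0.03 in the mutant pools. Wild-type replicate 1 was above wild-type replicate 3 for 25 of the 34 genes (73.5%, against 50.7% of all genes), and mutant replicate 2 above mutant replicate 1 for 26 (76.5%, against 52.9%).

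Other neural genes, in lists chosen with earlier results of these data known, were set beside them. Of 34 other early neuron genes, 16 had a higher and 18 a lower mutant mean (median -0.008), and 1 had an unadjusted p under 0.05. This was Uchl1, a neuronal ubiquitin hydrolase, whose log2 levels were -0.15, -0.20 and -0.09 in the wild-type and 0.08, 0.18 and 0.21 in the mutant pools. All mutant pools lay above all wild-type pools, at a difference of 0.30 (SE 0.0748, unadjusted p = 0.0022, adjusted p = 1 after rounding in limma). Mutant replicate 2 was highest for 11 of these 34 genes and wild-type replicate 1 for 10.

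Of 26 neural progenitor genes, 17 were higher and 9 lower (median 0.024), 0 had an unadjusted p under 0.05, and 10 were highest in mutant replicate 2. Fabp7, a fatty acid binding protein of radial progenitors, was among these 10, at 0.61 in mutant replicate 2 and between -0.19 and 0.12 in the other pools. Of the same 26 genes, 2 were lowest in that pool. Olig2 went this way, at -0.38 in mutant replicate 2 and between -0.25 and 0.39 in the other pools. Of 27 genes of the Notch control of neurogenesis, 13 were higher and 14 lower (median -0.000), 0 had an unadjusted p under 0.05, and 9 were highest in mutant replicate 2. Cdkn1c, an inhibitor of the cell cycle, reached 0.41 in that pool and lay between -0.05 and 0.16 in the others. Of the same 27 genes, 3 were lowest in mutant replicate 2. Mib1 was not among these 3, since its lowest pool was mutant replicate 1. It was at 0.05, 0.02 and 0.03 in the wild-type and at -0.07, -0.05 and -0.02 in the mutant pools, which did not overlap. Of 23 axon guidance genes, 11 were higher and 12 lower, and of 27 genes of spinal neuron subtypes and transmitters, 15 were higher and 12 lower, in both with 0 at an unadjusted p under 0.05. Of the subtype genes, 2 of 27 had mutant replicate 2 highest and 12 had wild-type replicate 3 lowest.

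Genes of other tissues were not level over the pools either. Myotome genes, which mark differentiating skeletal muscle, had mean log2 levels of 0.02, -0.00057 and -0.12 in the wild-type and 0.03, 0.25 and -0.0028 in the mutant pools, and 9 of 15 were highest in mutant replicate 2. Primitive erythroid genes were at -0.02, -0.07 and -0.15 and at 0.03, 0.16 and -0.03, with 8 of 13 highest in that pool. In limma, 4 of the 15 myotome and 5 of the 13 erythroid genes had an unadjusted p under 0.05, beside 2.67% of all genes. All of these had a higher mutant mean, and 0 passed the adjusted threshold. Surface ectoderm genes had 0 of 13 highest there and heart and gut endoderm genes 1 of 15, and neural crest and early glia genes 3 of 15. The sex mix of the pools, read as the log2 level of Xist minus the mean of 3 Y-linked genes, was -0.08, -1.48 and -1.73 in the wild-type and 0.04, 0.81 and 0.73 in the mutant pools, so it parted the genotypes, and mutant replicate 2 had the highest score. With that score as a covariate the median of the 34 genes was -0.144, with 6 higher and 28 lower. In that fit 0 of 34 were past the adjusted threshold and 1 (Ina) had an unadjusted p under 0.05, beside 1.26% of all genes. Because the score parted the genotypes, the sex mix and the genotype cannot be told apart in these pools, with or without the covariate. The part of tissue content, stage or sex mix in the spread of the neuronal genes was not tested.

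**Figure D5:**
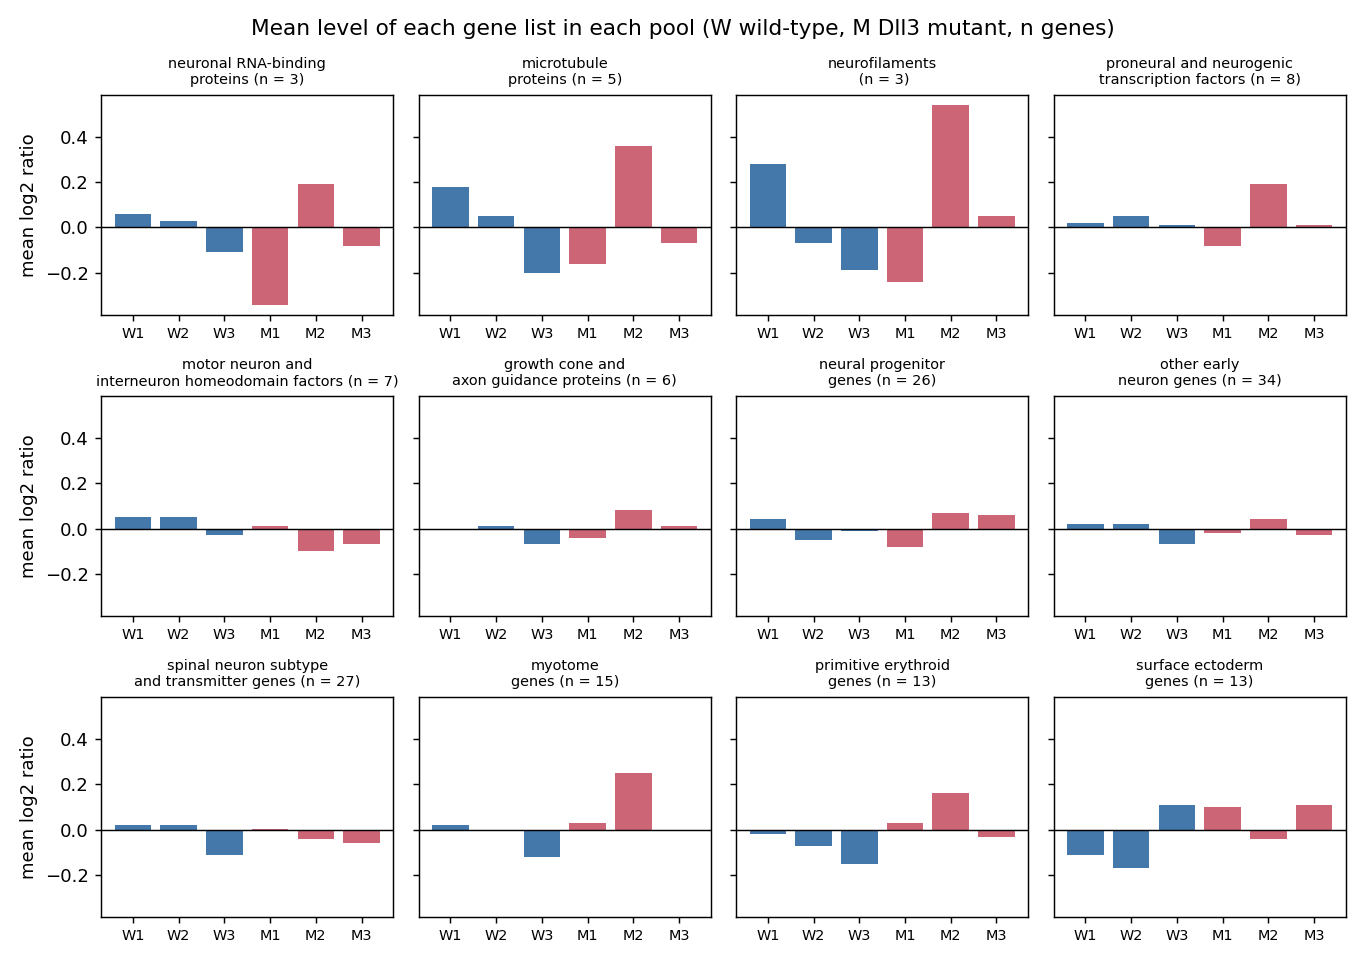
The mean log2 ratio (vertical axis) over the genes of each list in each of the 3 wild-type (W) and 3 Dll3 mutant (M) pools, 1 bar per pool, with the number of genes in each title. Neurofilament, microtubule, Elavl, myotome and erythroid genes are highest in M2, while the homeodomain factors are lowest there.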

How the data were processed

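Total RNA of 6 pools, 3 per genotype, was hybridised to 1 Affymetrix MOE430A array each. The authors' deposited table holds 1 linear ratio per probe set and pool; per the submitters' processing notes the tools were RMA and MAS5, whose versions and roles are not given in the sources used here. In 93.4% of rows the median over pools was 1 (within 0.0015), and the other 1497 rows had a lower median, so the deposited ratio is relative to each probe set's own reference and keeps no signal level. Of 22690 probe sets, 64 controls were left out. Of the rest, 20380 had 1 gene symbol in the platform annotation, 691 several and 1555 none.

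Log2 of the ratio, with no pseudocount, was fitted on genotype alone by lmFit and eBayes of limma 3.58.1 under R 4.3.3 (two-sided, Benjamini-Hochberg over all rows), once over 22626 probe sets and once over 12393 genes as the mean of their probe sets. An exact permutation test of 3 against 3 pools cannot go below 0.1 and was not used. Groups overlap unless every pool of one genotype lies above every pool of the other. Values are given per pool for genes with an unadjusted p under 0.05, for the largest difference in each role group, and for genes with probe sets of opposite sign over 0.2 apart. From each other list, the rule admits only the genes of smallest unadjusted p in each direction. The genes and all lists were chosen with earlier results of these data known. Promoter windows are from RefSeq, build GRCm38.p6. The alternatives tried were a replicate block, a variance trend, array weights, quantile normalization, median centring, other choices of probe sets or rows, a sex score as a covariate, and leaving out pools. The fit was tested on simulated data.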

Additional observations from a re-analysis of the deposited data

How the results depend on the processing

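No gene of the 34 passed the adjusted threshold under any of 16 alternatives; the smallest adjusted p was 0.462, for Mnx1 with array weights in limma. Of 543 log2 differences over these alternatives, 475 kept their direction and 68 reversed. Mnx1, Mapt, Gpm6a, Onecut1, Isl1, Isl2, Lhx1, Lhx3, Lhx4, Lhx5, Neurod4, Cntn2 and Robo3, 13 genes, reversed under none of them. The replicate block and the variance trend cannot change a log2 difference in this balanced design. Leaving out rows or probe sets changed only the genes that held them. The number that kept direction therefore includes many values fixed in advance and does not measure stability. The cause of the reversals was not tested.

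The replicate numbers shared by the genotypes were not taken as pairs, since the series design names no block. Deviations of same-numbered pools correlated at 0.368, -0.0249 and 0.37 over all probe sets. Those of replicates 1 and 3 were the highest between any wild-type and mutant pool, while wild-type replicate 2 correlated best with mutant replicate 1 (0.197). Over the 34 genes the same-numbered pools correlated at -0.272, -0.129 and 0.486. The highest there was between wild-type replicate 1 and mutant replicate 2, at 0.531. A shared effect of the replicate number was not tested. With the replicate number as a block, 1 gene of all passed the adjusted threshold (Uncx, not among the 34) and 1 probe set. In that fit 2 of the 34 genes (Mnx1 and Mapt) had an unadjusted p under 0.05, beside 4.98% of all genes. The main fit had 1 of the 34 and 2.67% of all genes. With a variance trend 1 gene passed. With array weights 1 gene and 1 probe set passed. Under these weights 4 of the 34 had an unadjusted p under 0.05, beside 9.68% of all genes. That unadjusted count of the 34 was 2 with quantile normalization (2.95% of all genes) and 2 without both pools numbered 3 (3.81%). It was 2 without probe sets ending in _x_at or _s_at (2.65%) and 3 with the most variable probe set per gene (2.28%). With 1 pool left out in turn it ran from 1 to 4. It was 4 without wild-type replicate 3 (5.51% of all genes) and without mutant replicate 1 (5.1%). The share over all genes thus moved too, from 1.4% without wild-type replicate 2 to 5.51%. The genes and the probe sets past the adjusted threshold each ran from 0 to 1. The median difference of the 34 ran from -0.080 to 0.067 and their median SD within a genotype from 0.130 to 0.162.

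Reversed differences were as follows. With array weights, Neurog1 was at 0.08, Nhlh1 at 0.01, Elavl2 at 0.03, Elavl4 at 0.03, Ina at -0.01 and Chga at 0.02. With quantile normalization Dcx was at -0.02 and Ina at -0.03, and with median centring at -0.00017 and -0.003. Without both pools numbered 3, Neurog1 was at 0.04, Neurog2 at -0.02, Dcx at -0.05, Stmn3 at -0.02, Ina at -0.12, Crmp1 at -0.06 and Dpysl3 at -0.06. Once the sex score was a covariate, the median of the 34 was -0.144, and Neurog1 was at 0.01, Neurod1 at -0.10, Insm1 at -0.15, Ebf3 at -0.05, Tubb3 at -0.50, Dcx at -0.30, Stmn2 at -0.43, Stmn3 at -0.28, Ina at -0.52, Nefl at -0.36, Nefm at -0.59, Gap43 at -0.01, Crmp1 at -0.09, Dpysl3 at -0.20 and Snap25 at -0.18. The sex score parted the genotypes, so the differences under that covariate cannot be told apart from the sex mix of the pools. With the most variable probe set Neurog1 was at 0.13.

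With 1 pool left out in turn, reversed genes ran as follows: Neurog1 from -0.08 to 0.06, Neurog2 from -0.15 to 0.17, Neurod1 from -0.06 to 0.24, Insm1 from -0.09 to 0.19, Nhlh1 from -0.10 to 0.08, Ebf3 from -0.03 to 0.07, Elavl2 from -0.16 to 0.00059, Elavl3 from -0.14 to 0.08, Elavl4 from -0.32 to 0.10, Tubb3 from -0.10 to 0.35, Dcx from -0.08 to 0.08, Stmn2 from -0.15 to 0.33, Stmn3 from -0.06 to 0.18, Ina from -0.14 to 0.16, Nefl from -0.22 to 0.29, Nefm from -0.02 to 0.52, Crmp1 from -0.06 to 0.23, Dpysl3 from -0.07 to 0.13, Chga from -0.09 to 0.06 and Snap25 from -0.01 to 0.13. The count of genes with the larger SD in the mutant pools, with alternatives chosen after seeing the data, ran from 19 to 29 of 34. The share over all genes ran from 34.2% to 68.5% under the same alternatives. Signal over background could not be weighed, since the ratios keep no signal level.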
